A study of Mus musculus with 6 samples.

Results

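The genes described here encode the proteins of the cytosolic ribosome. They were taken as every row of the deposited peak table whose gene symbol begins with Rpl, Rps or Rplp followed by a digit, leaving out the S6 kinase genes (symbols that begin with Rps6k). This gave 71 of 17901 rows, assigned to 65 gene symbols. For 60 of these symbols 1 row was the start-site peak, defined as the row with the highest mean count whose centre lay within 1 kb of the deposited transcription start or that was annotated as promoter. The other 11 rows lay farther from the start.

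The mark is H3K9ac, acetylation of lysine 9 on histone H3, measured by CUT&RUN, in which a nuclease tethered to an antibody releases the DNA beneath the marked nucleosomes for sequencing. The cells were lung endothelial cells isolated from mice, with 3 libraries labelled WT and Cre-negative and 3 libraries labelled CSE-KO and Cre-positive. The deleted gene product, CSE (cystathionine gamma-lyase), releases cysteine from cystathionine. The labels give neither the promoter that drives Cre nor strain or age, nor do they tie each library to an animal of its own. Every p-value therefore sets the group difference against the scatter between these libraries, and part of that scatter may be technical.

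A ribosome is made of a large (60S) and a small (40S) subunit. Each is a fold of ribosomal RNA bound by many proteins, most of which are needed in equal numbers. The genes of these proteins are scattered over the chromosomes, are short, and are among the most strongly transcribed genes of dividing and resting cells. Their mRNAs begin with a run of pyrimidines, the terminal oligopyrimidine tract, through which the kinase mTORC1 and the protein LARP1 set how strongly they are translated when amino acids are scarce. Several of these genes are mutated in Diamond-Blackfan anaemia, and several carry small nucleolar RNA (snoRNA) genes in their introns.

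The start-site letters are shown because the peaks below are placed against these starts and because the pyrimidine run is the sequence these genes are known for. RefSeq promoters on GRCm38.p6 ran from 250 bases before the start to 50 after it. They were found for 49 of 63 genes with a peak at or just downstream of the start. At least 45 of those RefSeq starts lay within 10 bp of the deposited start. For the rows named Rpl34-ps1 and Rps27rt the gap was measured from the peak edge instead. Each sequence below spans 30 bases on the gene's strand, 15 before the first transcribed base and 15 from that base onward. Capitals mark the longest run made of a C followed by at least 6 further C or T bases. Rpl7a held the longest run (19 bases) and Rpl35 one of 18, Rps6 and Rpl39 had runs of 10 and 8, and Rps7 and Rps28 held none.
Rpl7a, plus strand, chr2:26910792-26910821: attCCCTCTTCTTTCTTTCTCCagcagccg
Rpl35, minus strand, chr2:39005117-39005146: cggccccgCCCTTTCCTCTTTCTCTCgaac
Rps6, minus strand, chr4:86857353-86857382: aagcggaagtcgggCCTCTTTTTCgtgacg
Rpl39, minus strand, chrX:37085208-37085237: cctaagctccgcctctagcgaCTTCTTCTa
Rps7, minus strand, chr12:28635939-28635968: gcttccggtttccacccacctacttccgct
Rps28, minus strand, chr17:33824548-33824577: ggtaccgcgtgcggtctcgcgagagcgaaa

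Such a run lay in this 30-base window of 24 of the 49 ribosomal protein promoters (49.0%), against 14.2% of 32851 promoters in the table and 14.9% of 8084 promoters of genes that had a start-site peak here. In 14 of the 24 the run included the first transcribed base. A match describes letters only, and a promoter without one may hold a shorter run or start at another base.

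Short strings known from other promoters were counted on both strands of the 300 bases. None of these strings contains another, although the pyrimidine run can share bases with CCGGAAG read on the opposite strand. CCGGAAG, the core bound by ETS factors such as GABPA, was present in 17 of 49 ribosomal protein promoters (34.7%), against 8.86% of all promoters and 19.8% of those with a start-site peak. ATGGCGG, the core bound by YY1, was present in 9 (18.4%), against 4.05% and 8.67%. The 4 windows below, all upstream of the start, show these strings in capitals, on the gene's strand, so that a string lying on the opposite strand appears as its complement read backwards.
Rps6 with CCGGAAG, chr4:86857440-86857469: ttaatctacgcCCGGAAGtaacgcccctct
Rps21 with CCGGAAG, chr2:180257342-180257371: agtaccctgacCCGGAAGcacttaccgagg
Rpl35a with ATGGCGG reversed, chr16:33056477-33056506: ccttcctctttCCGCCATcttggcgcctgt
Rps13 with ATGGCGG reversed, chr7:116334257-116334286: ttaccgcctcgCCGCCATgccttctgggac

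GGGCGG, the GC box bound by SP1, was found in 55.1% of the ribosomal protein promoters and 64.5% of promoters with a start-site peak. CACGTG, the E-box bound by MYC and MAX, was found in 8.16% and 10.6%, the NRF1 site, GCGC and TGCGC parted by 1 base, in 8.16% and 11.1%, and CCAAT, bound by NF-Y, in 26.5% and 38.3%. TATAAA was found in 5 of 49 (10.2%) against 6.44%. The WT level of H3K9ac, defined in the next paragraph, had a median of 97.5 CPM per kb at the 24 genes with a pyrimidine run and 105 at the 25 without one. It was 94.6 at the 17 genes with CCGGAAG and 105 at the 32 without it, and 115 at the 9 genes with ATGGCGG and 104 at the 40 without it. The 5 genes with TATAAA had a median of 62.8 and the other 44 one of 106, and the 13 genes with CCAAT had 88.8 and the other 36 had 112.

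H3K9ac at the starts of ribosomal protein genes was high against other genes. Levels are given in CPM (counts relative to library size, with TMM factors), divided by peak width in kb so that genes can be compared. The median over the 60 start-site peaks was 105 CPM per kb in WT and 98.9 in CSE-KO, against 59.8 and 59.0 over all 7863 start-site peaks. Of the 60, 54 lay above the median of all start-site peaks in WT, 36 lay in the top 10% and 0 in the bottom 10%. The libraries gave 676056, 313610 and 610922 counts for WT 1 to 3 and 1173016, 679938 and 685131 for CSE-KO 1 to 3, and the median ribosomal protein start-site peak held a mean of 102 counts per library, against 43.7 for all start-site peaks.

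**Figure D1:**
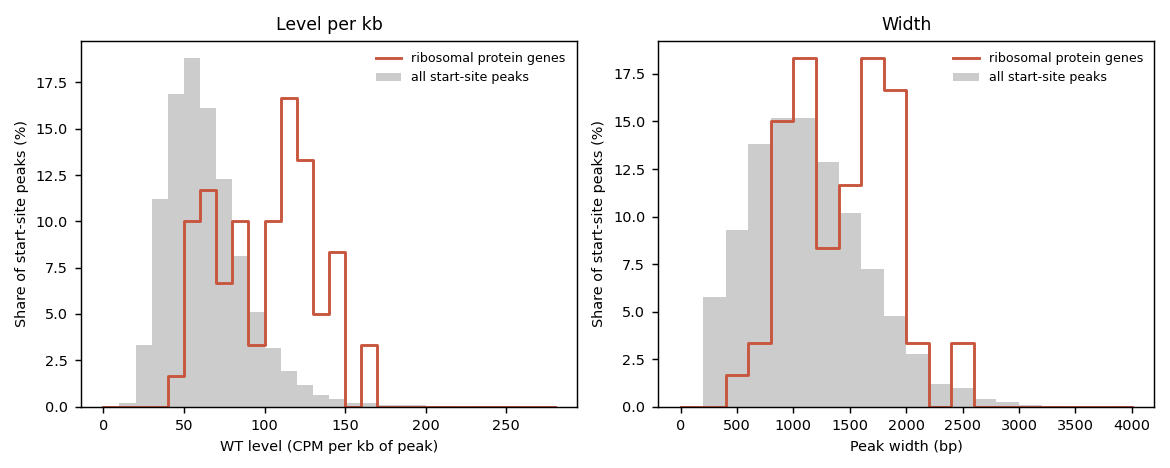
Share of start-site peaks (%) in each bin of WT level (CPM per kb of peak, left) and of peak width (bp, right), for the 60 ribosomal protein genes (line) and all 7863 start-site peaks (grey). The ribosomal protein genes have a median level of 105 against 59.8 CPM per kb and a median width of 1521 against 1077 bp.

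Among the ribosomal protein genes the levels spanned a factor of 4.01. Rps29, a small 40S protein (chr12:69158676-69159609, promoter), had the highest mean in WT and the third highest in CSE-KO, after Rps7 and Rps15, with 181, 128 and 189 CPM per kb in WT 1 to 3 and 132, 179 and 194 in CSE-KO 1 to 3. Rpl39, which lines the exit tunnel of the 60S subunit (chrX:37083897-37085428, intron 1), was lowest, with 37.8, 33.8 and 52.7 in WT and 45.9, 39.1 and 36.9 in CSE-KO. The libraries of these 2 genes did not overlap in either group. After Rps29 the next highest WT means were 163 ± 37.8 CPM per kb (SD, n = 3) at Rpl4, another protein of the exit tunnel, 148 ± 40.9 at Rpl9, 146 ± 19.5 at Rpl12, which sits at the base of the stalk, 144 ± 27.0 at Rps7 and 143 ± 18.6 at Rps6, the substrate of the S6 kinases.

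At the low end, Rpl39 (41.4 ± 9.96 CPM per kb; SD, n = 3) was followed by the stalk gene Rplp1 (50.4 ± 15), Rpl14 (52.4 ± 9.19), Rps26, which lies at the mRNA exit of the 40S subunit (52.7 ± 13.9), Rpl22 (56.4 ± 21.3) and Rpl10, which joins the 60S subunit late in its assembly (56.5 ± 5.16). Neighbours in this order were not separated by their spread. The gap between WT means was larger than the larger of both SDs in 1 of 59 pairs of adjacent genes, at Rpl18 (111 ± 2.27) and Rpl35 (107 ± 2.09). The widest gap, 14.9 CPM per kb between Rpl4 and Rpl9, was within their SDs. The ends of the order recurred in CSE-KO, where 7 of the top 10 and 8 of the bottom 10 WT genes kept such a place. Across the 60 genes the WT and CSE-KO means, which share the same peak widths, had a Pearson's r of 0.920 (log2 levels) and a Spearman's rho of 0.923, given as a description.

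**Figure D2:**
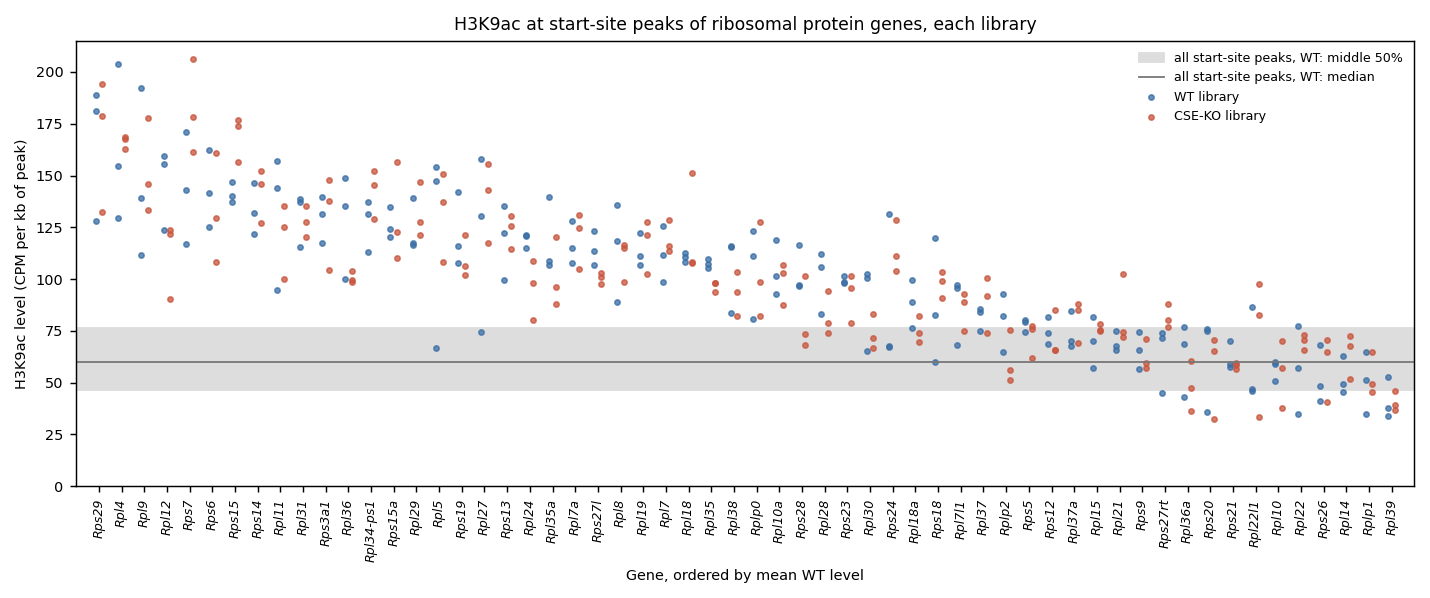
H3K9ac level (CPM per kb of peak) at the start-site peak of 58 of the 60 ribosomal protein genes, ordered by mean WT level, with 1 point per library (3 WT, 3 CSE-KO). The grey line and band mark the median and the middle 50% of all start-site peaks in WT, and 52 of the 58 genes drawn have a WT mean above that median.

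By role, the 31 genes of 60S proteins had a median WT level of 111 CPM per kb, the 21 genes of 40S proteins 103, and the 3 stalk genes, whose proteins recruit the GTPase translation factors, 80.0. The stalk genes ran from 50.4 at Rplp1 over 80.0 at Rplp2 to 105 at Rplp0. Roles were taken from the row symbols, so the rows named Rpl34-ps1 and Rps27rt count for neither subunit. The 15 start-site peaks of genes mutated in Diamond-Blackfan anaemia had a median of 118 and the 10 of snoRNA host genes 93.9. The 3 genes on the X chromosome, Rpl10, Rpl36a and Rpl39, were low, with a median of 56.5, and the level at the X-linked gene Rps4x, whose peak centre lay 1192 bp downstream of the start, was 53.7 ± 16.7 (SD, n = 3). Start-site peaks of the mitochondrial ribosomal protein genes, which build a separate ribosome, had a median of 62.5 over 60 genes, and those of proteasome genes 82.5 over 37.

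Other genes of like length had a lower median level. The ribosomal protein genes had a median length of 3152 bp, against 23626 bp for all genes with a start-site peak. The 30 ribosomal protein genes in the middle of that range, from 2390 to 4291 bp, had a median of 106 CPM per kb. The 399 other genes of that length had 58.2.

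The peaks were wide and lay to the downstream side of the start. Their median width was 1521 bp (433 to 2439), against 1077 bp for all start-site peaks. The widest were those of Rps12, Rps9 and Rps19, and those of Rplp0 and Rpl22l1 were among the narrowest. The peak centre lay downstream of the deposited start at 57 of 60 genes (95%), against 82.2% of all start-site peaks, at a median distance of 491 bp against 278 bp. The typical peak ended 1190 bp into the gene, against 807 bp, and reached 169 bp upstream, against 240 bp.

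The start itself was covered by the peak at 41 of the 60 genes (68.3%, against 71.4% of all start-site peaks). At the other 19 genes, Rps7, Rpl9, Rps24, Rpl5 and Rpl12 among them, the peak lay wholly downstream. At 11 genes (18.3%, against 16.8%) the peak also overlapped another protein-coding gene, as at Rpl4 with Zwilch and Rps28 with Ndufa7. The median upstream reach was 445 bp at these 11 and 129 bp at the other 49. Because the genes are short, the peak covered a median of 35.4% of the gene, against 3.34% for all start-site peaks, and at least 50% of the gene at 15 of 60 genes (25%, against 2.28%). Rplp1 was covered to 99.9% and Rpl28 to 77.8%.

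**Figure D3:**
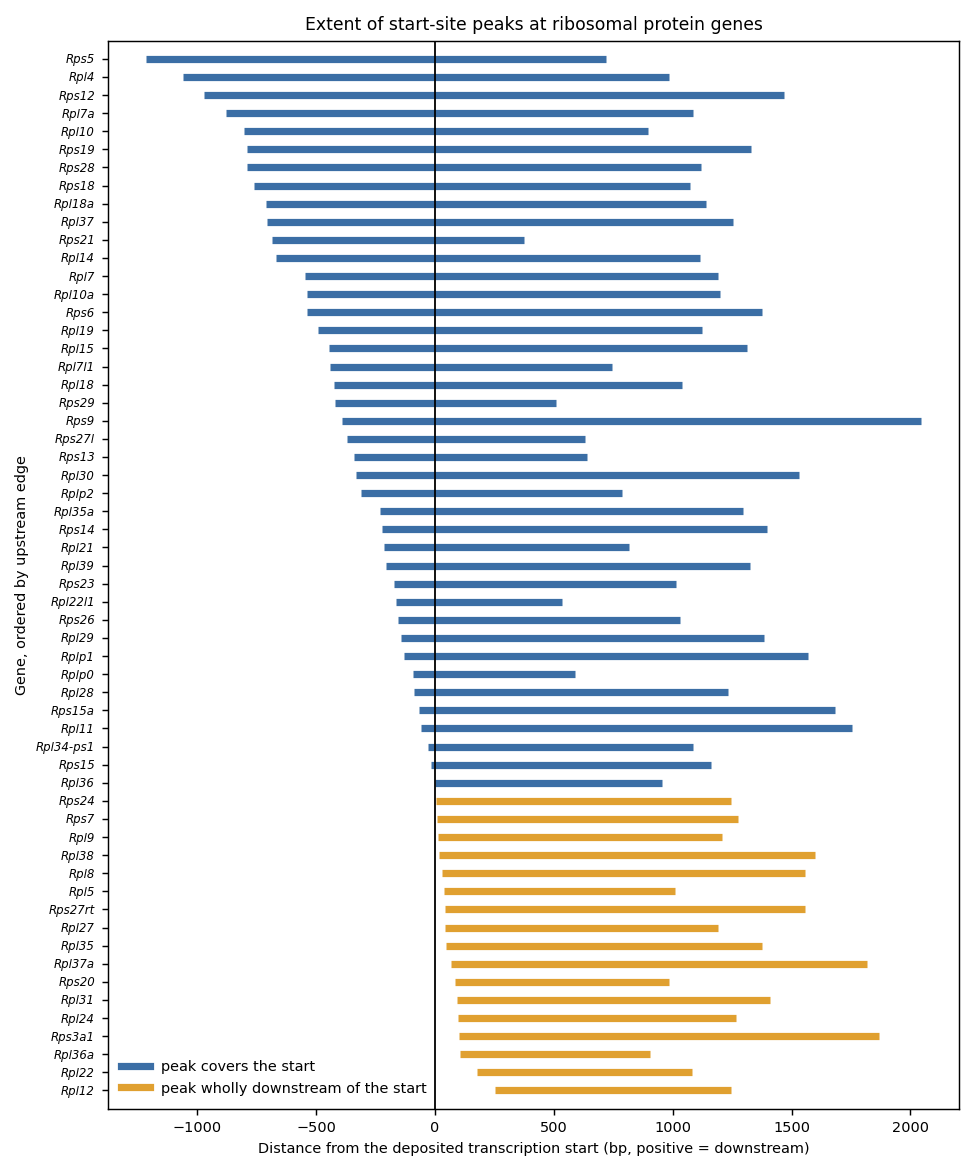
Extent of the start-site peak at 58 of the 60 ribosomal protein genes, drawn as a bar along the distance from the deposited transcription start (bp, positive downstream) and ordered by upstream edge. The 41 upper bars cover the start and the 17 lower bars lie wholly downstream of it.

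Several rows carry a symbol that is not that of the gene beneath them. The rows named Rpl34-ps1 and Rps27rt lie at Rpl34 and Rps27 on chromosome 3, whereas the RefSeq genes of those names lie on chromosomes 6 and 9, so their values are those of the Rpl34 and Rps27 starts. Both rows are left out of the counts and medians given for 60S and 40S genes. Their WT levels were 127 and 63.4 CPM per kb, and their log2 fold changes 0.13 and 0.31 (edgeR adjusted p = 0.91 and 0.78). Of 76 genes of core ribosomal proteins, 43 of the 60S subunit, 3 of the stalk and 30 of the 40S subunit, 58 had a row under their own symbol and 17 only under another, which leaves Rps25 with none. In 15 of these 17 loci the row falls outside the 71 rows, most often under a snoRNA of the intron, as Snord43 at Rpl3, Snord68 at Rpl13 and Snora64 at Rps2, and else under a neighbour, as Clhc1 at Rps27a. These 15 loci had WT levels of 64.9 to 124 CPM per kb with a median of 92.3. The paralog genes Rpl22l1, Rpl7l1 and Rps27l had start-site peaks of their own, at 59.9 ± 23.2, 87.0 ± 16.5 and 115 ± 8.27 CPM per kb (SD, n = 3), while no row overlapped Rpl3l, Rpl10l, Rpl39l, Rps4l, Rps3a2 or Rps3a3.

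The share of counts in the ribosomal protein rows differed between the groups by less than the spread of the libraries. It was 0.947%, 0.934% and 0.945% in WT 1 to 3 and 0.996%, 0.912% and 0.922% in CSE-KO 1 to 3. The means were 0.942% ± 0.0068 and 0.943% ± 0.046 (SD, n = 3 each), and the WT range lay inside that of CSE-KO. These rows make up 0.397% of all rows and 0.591% of their summed length.

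No ribosomal protein peak passed the test for a difference in H3K9ac between CSE-KO and WT. Of the 68 rows that passed the filter on low counts, 0 had an adjusted p under 0.05 by edgeR's quasi-likelihood test with Benjamini-Hochberg adjustment, where 0.0868% of all tested rows did (14 of 16134). The smallest adjusted p was 0.596. At an unadjusted p under 0.05 there were 5 rows, 2 higher and 3 lower in CSE-KO (7.35%, against 7.08% of all tested rows, of which 3.01% were higher and 4.07% lower). DESeq2, voom with TMM and voom with quantile normalization called 0 as well. They put 1, 6 and 10 of the 68 rows at an unadjusted p under 0.05, and 3.51%, 7.75% and 7.80% of all tested rows. The share of the 68 rows was thus below that of all rows with DESeq2 and above it with both voom fits, most so with quantile normalization. The authors' deposited table gave 0 of 71 rows with an adjusted p under 0.05 and 5 with an unadjusted p under 0.05, beside 0.0559% and 5.47% of all its rows.

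The fold changes of the 60 start-site peaks were small and balanced, with 0 adjusted p-values under 0.05 by edgeR, where 0.0262% of all tested start-site peaks had one (2 at an unadjusted p under 0.05, beside 5.49%). Their median log2 fold change, CSE-KO against WT, was -0.01, and they ran from -0.38 to 0.35. Of the 60, 31 lay below 0 (51.7%, beside 53.0% of all tested start-site peaks). The 95% interval of the fold change stayed within 2-fold in either direction at all 60, where this held for 79.6% of tested start-site peaks, and within 1.5-fold at 40. Over the 68 rows, 37 lay below 0, as did 50.1% of all tested rows. The median standard error (SE) of the start-site peaks was 0.18, against 0.26 over all tested start-site peaks. The WT and CSE-KO libraries did not overlap at 8 of the 68 rows (11.8%, beside 13.0% of all tested rows), 2 higher and 6 lower, beside 6.09% and 6.90% of all tested rows. Levels, shares and fold changes are relative to the counts of each library. A gain or loss of H3K9ac shared by all peaks would not show in them. In bulk libraries, fewer cells of a type and less of the mark per cell cannot be told apart.

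**Figure D4:**
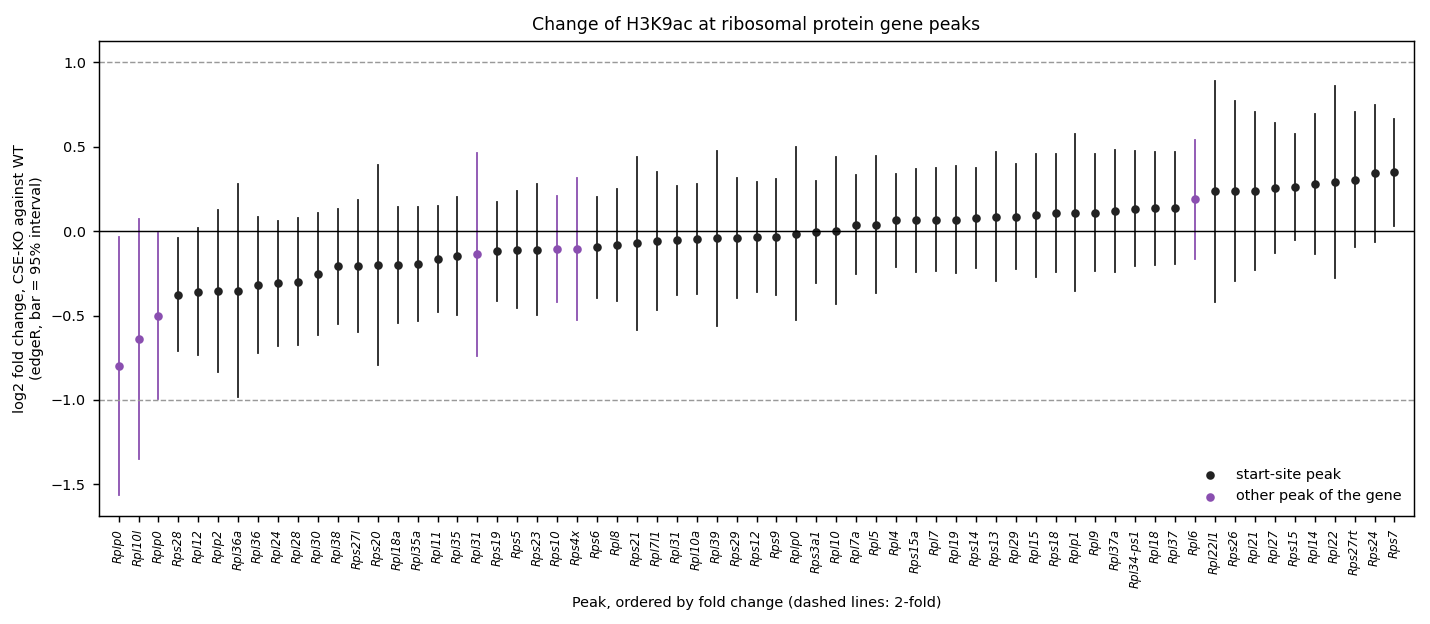
Log2 fold change of CSE-KO against WT (edgeR) at 65 of the 68 tested ribosomal protein rows, in order of size, with 95% intervals. Start-site peaks (black) lie between -0.38 and 0.35 with intervals inside the dashed lines at 2-fold, and the widest shifts are at other peaks (purple).

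Of the 60S genes, none of 31 had an unadjusted p under 0.05 at the start, and 15 had a log2 fold change below 0. Rpl12 gave 123, 158 and 155 CPM in WT 1 to 3 and 121, 123 and 89.8 in CSE-KO 1 to 3. The CSE-KO libraries lay just below the WT libraries, by a log2 fold change of -0.36 ± 0.19 (edgeR, ± SE; adjusted p = 0.73), and by -0.23 without CSE-KO 3. Rpl24, which bridges the subunits, gave 135, 142 and 142 CPM in WT and 115, 127 and 94.1 in CSE-KO. Its groups did not overlap either (edgeR: log2 fold change -0.31 ± 0.18 SE, adjusted p = 0.77; -0.20 without CSE-KO 3). Rpl5 and Rpl11, which carry the 5S RNA and bind MDM2 when ribosome assembly fails, had log2 fold changes of 0.04 (SE 0.20) and -0.16 (SE 0.16). At Rpl5 the shallowest library, WT 2, stood apart with 64.6 CPM beside 150 and 143.

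The stalk genes overlapped between the groups throughout. Rplp0 gave 54.9, 84.0 and 75.7 CPM in WT and 55.9, 67.2 and 86.9 in CSE-KO, a log2 fold change of -0.02 (SE 0.26). Rplp1 gave 59.3, 87.2 and 110.3 CPM and then 110.0, 83.3 and 76.8. Rplp2 gave 71.2, 90.5 and 102 CPM and then 82.9, 61.4 and 56.5, with a log2 fold change of -0.35 ± 0.24 (edgeR, ± SE; adjusted p = 0.80), which was -0.56 without CSE-KO 1 and -0.21 without WT 3.

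Of the 40S genes, 2 of 21 had an unadjusted p under 0.05 at the start, in opposite directions. Rps28 (chr17:33823445-33825351, promoter) gave 185, 184 and 222 CPM in WT and 130.3, 193 and 140.5 in CSE-KO. CSE-KO 2 lay among the WT libraries and the other two below them (edgeR: log2 fold change -0.38 ± 0.17 SE, adjusted p = 0.66; -0.25 without CSE-KO 1). Rps7 (chr12:28634677-28635944, intron 3) gave 217, 181 and 148 CPM in WT and 261, 205 and 226 in CSE-KO, with WT 1 inside the CSE-KO range (edgeR: log2 fold change 0.35 ± 0.16 SE, adjusted p = 0.67). It was 0.20 without WT 3 and 0.52 without WT 1.

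At Rps15 the groups did not overlap. It gave 162, 165 and 173 CPM in WT and 205, 184 and 209 in CSE-KO (edgeR: log2 fold change 0.26 ± 0.16 SE, adjusted p = 0.77). Rps24, mutated in Diamond-Blackfan anaemia, gave 83.0, 84.0 and 163 CPM in WT and 159, 129 and 138 in CSE-KO, where WT 3 exceeded all CSE-KO libraries. Rps6 and Rps19, a frequent site of Diamond-Blackfan mutations, had log2 fold changes of -0.10 (SE 0.15) and -0.12 (SE 0.15). Over the 15 start-site peaks of Diamond-Blackfan genes 7 lay below 0, with a median of 0.04.

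The Rplp0 symbol was also given to 2 rows in intron 1 of Pxn, the gene of the adhesion protein paxillin. The row at chr5:115534739-115535547 gave 83.0, 93.7 and 77.3 CPM in WT and 49.1, 67.2 and 63.7 in CSE-KO, and the row at chr5:115543580-115544020 gave 31.1, 45.2 and 37.8 and then 16.1, 20.5 and 29.

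Both Pxn rows had all CSE-KO libraries below all WT libraries, with log2 fold changes of -0.50 (SE 0.24) and -0.80 (SE 0.38) and edgeR adjusted p-values of 0.70 and 0.69. The rows assigned to Rpl10l, a paralog expressed in the testis, lay far from that gene, the nearer of them 368745 bp away. One of them, at chr12:66734803-66735651, had a log2 fold change of -0.64 ± 0.35 (edgeR, ± SE; adjusted p = 0.75), which was -0.35 without WT 1. The other (chr12:65915487-65915826) did not pass the filter on low counts, with 7, 7 and 10 counts in WT and 2, 7 and 1 in CSE-KO. The sole row of Rps15a-ps6 was also below the filter. At Rpl6, Rps10 and Rps4x the single row had its centre 1007, 1025 and 1192 bp downstream of the start, just beyond the 1 kb limit, and their log2 fold changes were 0.19, -0.10 and -0.10.

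CSE-KO 1, the deepest library, weighed on these values. Against the WT mean, the median of the 60 start-site peaks was 0.09 higher on the log2 scale in CSE-KO 1, and 0.06 and 0.02 lower in CSE-KO 2 and 3. With that library left out, the median of the log2 fold changes fell to -0.08, 38 of the 60 lay below 0 (52.3% of all tested start-site peaks did), and 0 of 69 rows had an unadjusted p under 0.05, beside 5.51% of all tested rows.

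Genes that work beside the ribosomal proteins gave no call either, with 0 adjusted p-values under 0.05 by edgeR at the start-site peaks of each list below. Of the ribosomal proteins with other names, Rack1, a 40S scaffold, and Rpsa had log2 fold changes of 0.07 (SE 0.14) and 0.22 (SE 0.30). Among 28 ribosome assembly genes 14 lay below 0 and 1 had an unadjusted p under 0.05, the endonuclease gene Nob1 (log2 fold change -0.49, SE 0.24). Nop56, a snoRNP core protein, and Sbds, which helps release eIF6 from the 60S subunit, gave 0.38 (SE 0.21) and -0.46 (SE 0.27).

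Among 12 other translation genes whose mRNAs carry the oligopyrimidine tract 8 lay below 0, and 2 had an unadjusted p under 0.05. These were Eef1a1, the elongation factor that delivers tRNA (log2 fold change -0.33, SE 0.14), and Eif3k (-0.55, SE 0.24). Among 13 regulators, 8 lay below 0 and 1 had an unadjusted p under 0.05, Gabpa (-0.38, SE 0.18), and Max and Mdm2 gave 0.40 (SE 0.26) and -0.32 (SE 0.22). At an unadjusted p under 0.05 stood 5.49% of all tested start-site peaks. The 15 ribosomal protein loci under other symbols had none at that level, 0 adjusted p-values under 0.05, and log2 fold changes from -0.34 to 0.36 with a median of 0.03.

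The cell type was checked on marker lists. All 13 endothelial genes, Pecam1, Cdh5 and Kdr among them, had peaks, with a summed level of 2575 to 2818 CPM in the WT libraries and 2444 to 2749 in CSE-KO. Of 10 epithelial genes 5 had peaks (320 to 350 and 290 to 332 CPM). These were Epcam, Cdh1, Krt8, Krt18 and Scgb1a1, and Nkx2-1, Sftpc, Sftpb, Ager and Foxj1 had none. Of 10 immune genes 1 had a peak, Csf1r (16.3 to 38.8 and 21.2 to 23.4 CPM), and Ptprc had none. Of 9 mesenchymal genes 1 had one, Col1a1 (32.3 to 46.0 and 21.9 to 50.8 CPM). The sums depend on the number of rows, 38 endothelial, 10 epithelial, 1 immune and 1 mesenchymal. Per kb, the median WT levels of these rows were closer, at 62.7, 54.2, 55.5 and 37.2 CPM. Most of these rows were not start-site peaks. At start-site peaks the median WT level was 116 CPM per kb over 8 endothelial genes and 55.6 at 1 epithelial gene. The immune and mesenchymal genes had no start-site peak. The endothelial start-site median thus lay above the 105 CPM per kb of the ribosomal protein genes. No row was assigned to Cth, the gene of CSE, so its acetylation does not check the labels.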

How the data were processed

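H3K9ac CUT&RUN was analysed in 3 WT and 3 CSE-KO libraries. The authors deposited 1 table of peaks with raw counts of reads per peak and library, and these counts were used here. According to the submitters' notes the tools were featureCounts, STAR 2.7.11a, DESeq2 1.36.0, Trimmomatic 0.39 and Picard 3.1.1. How peaks were called and how multiply mapped reads were treated remain not given in the sources used here, which matters because ribosomal protein genes have many processed pseudogene copies. The notes name mm39, but the starts of 60 genes compared with RefSeq lay at a median of 0.5 bp from GRCm38.p6 positions, so coordinates are given on GRCm38. The table holds 75.0% of the numbered peaks. Its other value columns are written with decimal commas; of these, the authors' p-values were copied and the RPKM columns served to recover library totals for an alternative. Their names carry a different numeric prefix in each group, of unstated meaning. Any batch split along the groups cannot be told apart from genotype. All WT libraries are labelled Cre-negative and all CSE-KO libraries Cre-positive, so an effect of Cre itself cannot be told apart from CSE loss.

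Counts were tested with edgeR 4.0.16 in R 4.3.3 over all rows (filterByExpr with a minimum count of 10, TMM, glmQLFit and glmQLFTest, two-sided, Benjamini-Hochberg adjustment over 16134 tested rows, threshold 0.05). The filter removed 1767 rows. SE came from the quasi-likelihood F statistic. The median count behind a start-site peak limits the precision, and the intervals show it. Alternatives used limma 3.58.1, DESeq2 1.42.0, other scalings and filters, a replicate block and each library left out. Genes and lists were chosen with earlier results of these data known. Named genes are the 6 highest and 6 lowest start-site levels, the 10 rows with the smallest p, genes with most rows, the stalk genes, a set of textbook members, the 3 widest and narrowest peaks, and up to 3 per further list. Others were named after their values were seen. Some genes that this rule names are not reported here singly and are not drawn, but stay in all counts and medians.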

Additional observations from a re-analysis of the deposited data

How the results depend on the processing

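The members' count of 0 rows past the threshold held under all 16 alternatives, and no named value passed it under any. Over all rows the 14 calls became 7 with DESeq2, 8 with a mean count of 50 or more, and 6 to 13 with each library left out. Labels give both groups replicate numbers. Deviations of same-numbered libraries had correlations of 0.065, 0.014 and 0.0051, and those of differently numbered libraries ran from -0.036 to 0.019. At low counts per row, such small correlations cannot show whether the numbers pair the libraries. With the replicate block 15 rows were called, 0 of them ribosomal protein rows, of which 6 had an unadjusted p under 0.05. The median log2 fold change of the 60 start-site peaks ran from -0.08 without CSE-KO 1 to 0.05 with voom quantile normalization. The share of counts in WT was 0.881% over the implied library totals, 0.871% for start-site peaks only and 1.15% with the 15 loci under other symbols, the last chosen after seeing the data. In CSE-KO these were 0.873%, 0.877% and 1.15%. Leaving out each library gave 0.940% to 0.946% in WT and 0.917% to 0.959% in CSE-KO.

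Of 44 named fold changes, 27 kept their sign throughout and 17 changed it at least once; the cause was not tested. Signs turned with DESeq2 at Rpl10 (-0.015). They turned at Rplp0 with library size alone (0.0034). With voom and TMM they turned at Rps9 (0.0012). With voom quantile normalization they turned at Rps6 (0.037), Rpl39 (0.0024), Rps19 (0.033), Rps9 (0.054) and Rps12 (0.061). With a mean count of 50 or more they turned at Rps9 (0.0011) and Rps12 (0.00015), and without a filter at Rpl10 (-0.0032). Leaving out each library gave log2 fold changes of -0.27 to 0.031 at Rps6, -0.065 to 0.29 at Rpl9, -0.082 to 0.22 at Rpl4, -0.16 to 0.13 at Rps29, -0.15 to 0.18 at Rpl39, -0.14 to 0.38 at Rplp1, -0.0052 to 0.67 at Rpl22 and -0.24 to 0.20 at Rpl10. It gave -0.20 to 0.15 at Rplp0, -0.35 to 0.11 at the distant Rpl31 row, -0.18 to 0.21 at Rpl5, -0.15 to 0.040 at Rps9 and -0.18 to 0.040 at Rps12. It gave -0.095 to 0.65 at Rpl22l1, -0.094 to 0.46 at Rpsa and -0.099 to 0.23 at Rack1. Among the assembly, translation and regulator genes named, fold changes that moved by over 1.5 times were -0.18 without CSE-KO 2 and -0.78 without CSE-KO 3 at Sbds, 0.25 at Nop56 and -0.23 at Gabpa without WT 2, -0.22 at Eef1a1 without WT 1, -0.34 at Eif3k without WT 3, and -0.19 at Mdm2 without CSE-KO 1. At Max they were 0.71 without WT 1, 0.21 without WT 2 and 0.22 without CSE-KO 1.

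There were 3 libraries a group and a median of 102 counts per start-site peak. The 95% intervals of the start-site peaks stayed within 1.5-fold at 40 of 60 genes and within 2-fold at all 60. The data do not tell apart the shifts that lie inside a gene's interval.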
